A study of Mus with 6 samples.

Results

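Dual specificity phosphatases of the mitogen-activated protein kinase (MAPK) pathways were examined in lens epithelial cells (LECs) at the moment of lens fiber cell removal and 6 h later, a mouse model of cataract surgery (post cataract surgery, PCS). The genes were taken by symbol, Dusp1, Dusp4, Dusp5, Dusp6, Dusp8, Dusp10, Dusp12 and Dusp15, and matched to Ensembl IDs through the names paired with them in the study's supplementary tables. Of the 8 genes, 7 were matched, and all 7 of these passed the low-count filter, out of 55421 genes counted and 16810 tested. Dusp8 was not analysed here. Both groups were wildtype C57BL/6 mice, 2 months old according to the labels, while the methods give 3 to 5 months and both sexes. The 0 h PCS group and the 6 h PCS group had 3 libraries each, and each library was made from 5 pooled lens capsules with the LECs left on them. One eye of a mouse was operated 6 h before the other, so capsules of both groups may share mice, and the labels do not tie pools to mice. Nothing in the labels states that the pools came from separate litters or days, so p-values measure the spread between these pools.

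MAPKs are switched on by phosphorylation of a threonine and a tyrosine, and dual specificity phosphatases remove both phosphates. The typical members carry a docking domain that selects the kinase: some prefer ERK, the kinase downstream of growth factor receptors and Ras, and others prefer the stress kinases p38 and JNK. Several of them are early response genes, transcribed when the MAPK that they later switch off is active, which makes them the feedback arm of the pathway. In the lens, FGF and other growth factors in the eye's fluids act through ERK on the proliferation of epithelial cells and on their differentiation into fibers. Here Dusp4, Dusp5 and Dusp6 were taken as ERK-directed, and Dusp1 and Dusp10 (with Dusp8) as p38/JNK-directed. The division is a simplification, since Dusp4 also acts on JNK and Dusp1 also acts on ERK. Dusp12 and Dusp15 are atypical members that lack the MAPK docking domain.

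Depth was similar over the 6 libraries, with 18039974 to 24701039 read pairs counted on genes. The 7 genes together took 3970 to 5635 of these counts in a 0 h library and 13529 to 19439 in a 6 h library. A gene was called when its fold change exceeded 2 and its Benjamini-Hochberg adjusted p over all genes tested, in the quasi-likelihood test of edgeR, was at most 0.05. Levels of one gene are given as CPM, its count scaled to the TMM-normalized library size, and levels of different genes are compared as FPKM, its count divided by exon length and by the library's total gene count without TMM. FPKM of the 2 time points are therefore on the library size scale, on which 6 h levels are lower relative to 0 h than in CPM, while ratios and shares within a library are unaffected. The marker genes of lens epithelium with a name at hand were present in every library. Pax6 was at 573 ± 90.3 CPM at 0 h and 402 ± 104 CPM at 6 h PCS (SD, n = 3). Gja1 was at 411 ± 2.82 and 546 ± 160 CPM, and Foxe3 at 86.9 ± 10.2 and 106 ± 6.16 CPM (SD, n = 3). Pax6 and Gja1 moved in opposite directions, by log2 fold changes of −0.51 and 0.41, with overlapping groups. None of these genes was called. Summed over the 6 epithelial markers with a name at hand, the level was 1270 to 1533 CPM at 0 h and 1300 to 1502 CPM at 6 h PCS. Single markers differed under that sum: Epha2 was called, with a log2 fold change of 1.21 (edgeR's adjusted p = 0.0134), while Sox2 and Pdgfra lay lower in every 6 h library, at −0.70 and −0.73 (edgeR's adjusted p = 0.0151 and 0.0179), under the fold limit. Markers of other cells were also read, and some were higher at 6 h PCS. The summed level of the 4 erythrocyte genes, Hba-a1, Hba-a2, Hbb-bs and Alas2, was 7.85 to 19.4 CPM at 0 h and 71.8 to 128 CPM at 6 h PCS, and all 4 were called. The 2 keratins of corneal epithelium with a name at hand, Krt5 and Krt12, summed to 0.765 to 14.7 CPM at 0 h and 69.2 to 104 CPM at 6 h PCS. Of the 6 leukocyte genes only Cd68 was called, and their sum was 13.5 to 22.6 CPM at 0 h and 16.8 to 32.3 CPM at 6 h PCS. The 3 pigment cell genes had sums of 38.5 to 165 CPM in the 0 h libraries, 62.6 CPM in 6 h replicate 1, 368 CPM in 6 h replicate 2 and 1598 CPM in 6 h replicate 3. The 3 endothelial genes summed to 3.75 to 25.9 CPM at 0 h and 19.3 to 35.8 CPM at 6 h PCS, and the 2 stromal genes to 10.1 to 20.7 and 6.24 to 119 CPM. No marker with a name at hand was at 0 in all 6 libraries, and the listed markers without a name were not read. The part of these cells in the changes of the phosphatase genes was not tested, and in pooled capsules fewer cells of a type and less RNA per cell cannot be told apart.

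Between 0 h and 6 h PCS, all 5 typical phosphatase genes among the 7 rose and both atypical ones fell. Of all 16810 genes tested, 5.35% were called, 4.53% higher and 0.821% lower at 6 h PCS. The lower share is the less stable: 138 genes were called lower, against 43 without 0h replicate 1 and 53 without 0h replicate 3. In the other direction, 256 were called lower by DESeq2, 253 by edgeR's exact test and 257 without the low-count filter. The 7 genes had been named with results of these data known, so their count is a description beside those shares. For each of the 7, no 0 h library overlapped the range of the 6 h libraries. Such separation was seen in 30.6% of all genes tested, 15.3% with the 6 h libraries above and 15.3% with them below. Among the 6372 tested genes with a name, to which the 7 belong, it was more frequent, with 1705 above and 1047 below. The 5 increases ran from 3.60-fold in Dusp6 to 8.70-fold in Dusp5, and the lower level of the atypical genes was 2.66-fold lower in Dusp15 and 3.06-fold lower in Dusp12. Over the 7 genes the log2 fold change had a median of 2.13, and over all genes tested one of −0.0030.

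**Figure D1:**
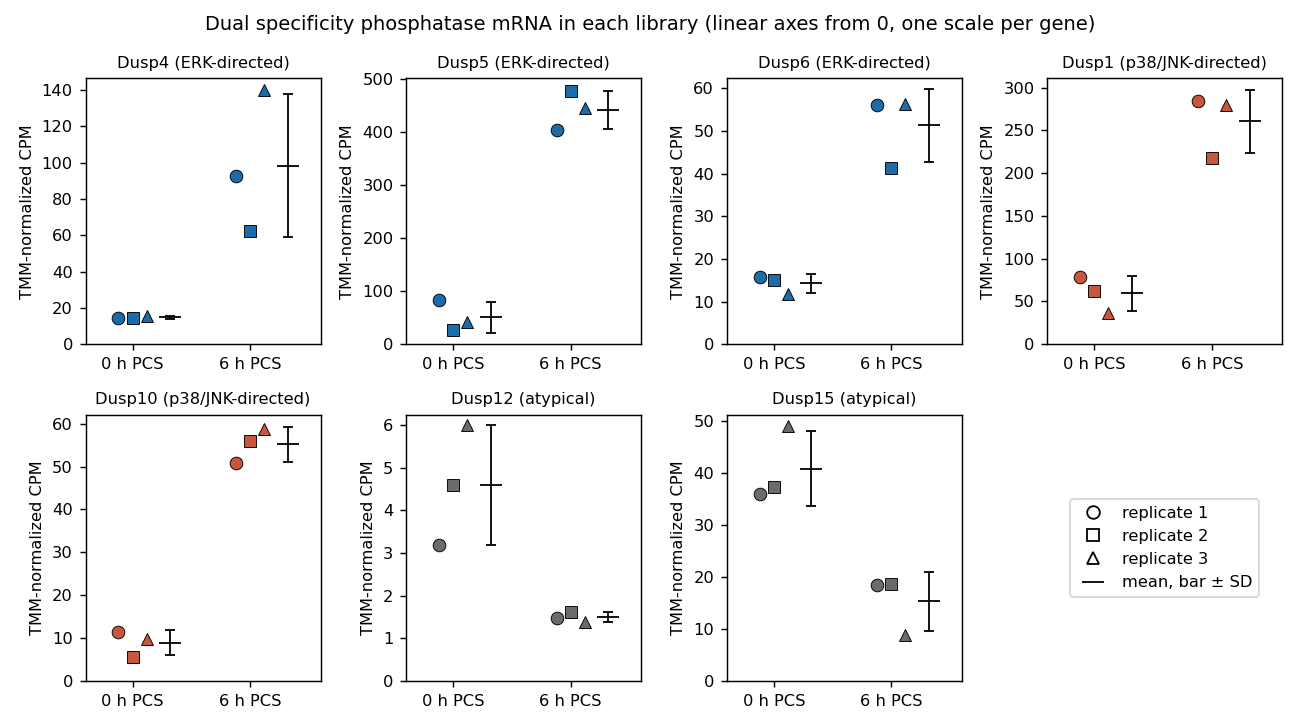
Level of each matched gene in each library, as TMM-normalized CPM on a linear axis from 0 with its own scale per gene; symbols mark the replicates and bars show the mean ± SD of 3 libraries. The 5 typical genes lie higher in every 6 h library, and Dusp12 and Dusp15 lower in every one. Relative to the mean, the spread is wider at 0 h PCS for Dusp1, Dusp5, Dusp10 and Dusp12. It is wider at 6 h PCS for Dusp4 and Dusp15, and similar at both times for Dusp6.

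Dusp5 encodes a nuclear phosphatase that acts on ERK and also holds inactive ERK in the nucleus. In GRCm38 the gene (ENSMUSG00000034765) spans positions 53529145 to 53541809 of chromosome 19. It had 83.1, 27.4 and 42.0 CPM in 0 h replicates 1, 2 and 3, against 404, 477 and 445 CPM in 6 h replicates 1, 2 and 3. The highest library at 0 h PCS was 3.03 times the lowest, whereas the 3 libraries at 6 h PCS lay within 1.18-fold of each other. The lowest 6 h library was still 4.87 times the highest 0 h library. In edgeR's fit this was a log2 difference of 3.12 with a standard error of 0.403, a 95% interval of 2.17 to 4.08 and an adjusted p of 0.00555, the 206th largest increase of all 16810 genes tested. Without 0h replicate 1, in which its baseline was highest, the log2 fold change was 3.67.

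Dusp4 encodes a nuclear phosphatase induced by growth factors that acts on ERK and JNK. The gene (ENSMUSG00000031530) lies on chromosome 8 from 34807610 to 34819894. It had 14.4, 14.3 and 15.7 CPM in the 0 h libraries and 92.7, 62.4 and 140.0 CPM in the 6 h libraries. The baseline was nearly the same in all 3 pools, with a coefficient of variation of 5.40%, while that of the 6 h pools was 39.8%. This is the reverse of Dusp5, whose coefficient of variation was 56.8% at 0 h and 8.20% at 6 h PCS. Dusp4 rose by 2.73 on the log2 scale, with a standard error of 0.271, a 95% interval of 2.12 to 3.34 and an adjusted p of 0.000539 in the edgeR fit. Its highest level was in 6 h replicate 3, which also held the highest sum of pigment cell markers, and without that library Dusp4 remained called, with a log2 fold change of 2.39.

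Dusp6 encodes a cytoplasmic phosphatase selective for ERK, best known as a feedback inhibitor of FGF signalling. The gene (ENSMUSG00000019960) lies on chromosome 10 from 99263231 to 99267489. Its level was 15.8, 15.05 and 11.8 CPM at 0 h PCS and 56.1, 41.4 and 56.4 CPM at 6 h PCS. The increase was the smallest among the 5 typical genes, and the pools were about equally even at both times, with a coefficient of variation of 14.9% at 0 h and 16.7% at 6 h PCS. On the log2 scale the increase was 1.85, with a standard error of 0.189, a 95% interval of 1.43 to 2.27 and an adjusted p of 0.000483 in the edgeR fit. At its high-coordinate end, 626 nt of its annotated span are shared with the long noncoding RNA gene Gm34921, and the strand setting of the counting is not stated, so read pairs from that stretch may belong to either gene.

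Dusp1 encodes a nuclear phosphatase that acts mainly on p38 and JNK and is a classical immediate early gene. The gene (ENSMUSG00000024190) lies on chromosome 17 from 26505591 to 26508472. Its level was 78.6, 62.4 and 37.0 CPM at 0 h PCS and 284, 218 and 279.7 CPM at 6 h PCS. It was therefore among the better expressed genes before the interval began, at the 86.9 percentile of the genes tested by CPM, and reached the 97.7 percentile at 6 h PCS. Its highest library was 2.13 times its lowest at 0 h PCS and 1.31 times at 6 h PCS. EdgeR estimated the increase at 2.13 on the log2 scale, with a standard error of 0.259, a 95% interval of 1.55 to 2.72 and an adjusted p of 0.00158.

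Dusp10 encodes a phosphatase selective for p38 and JNK that is found in cytoplasm and nucleus. The gene (ENSMUSG00000039384) lies on chromosome 1 from 184034381 to 184075636. It had 11.4, 5.65 and 9.71 CPM at 0 h PCS and 50.7, 56.0 and 58.9 CPM at 6 h PCS. As in Dusp5, the libraries differed at 0 h PCS, by 2.02-fold, and converged at 6 h PCS, where they lay within 1.16-fold. The estimated log2 increase was 2.63, with a standard error of 0.247, a 95% interval of 2.08 to 3.18 and an adjusted p of 0.000343 in the edgeR fit, where its p-value was the 48th smallest of all genes tested. Dusp1, Dusp5, Dusp6 and Dusp10 were each highest at 0 h PCS in replicate 1, and that library also had the highest sums of erythrocyte, corneal and pigment cell markers of the 3. Without 0h replicate 1 all 5 typical genes were called.

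The 2 atypical genes were lower after the interval. Dusp12, whose product carries a zinc-binding domain in place of the MAPK docking domain, lies on chromosome 1 from 170874187 to 170885540 (ENSMUSG00000026659). It had 3.18, 4.59 and 6.00 CPM at 0 h PCS and 1.48, 1.62 and 1.39 CPM at 6 h PCS. These levels rest on 74, 126 and 139 counts at 0 h PCS and 22, 36 and 23 counts at 6 h PCS, the fewest of the 7 genes. Dusp12 changed by −1.61 on the log2 scale, with a standard error of 0.400, a 95% interval of −2.51 to −0.72 and an adjusted p of 0.0364 in the edgeR fit. Leaving out any one of the 6 libraries ended the call, and edgeR's adjusted p-values were then 0.0625 to 0.145 at log2 fold changes of −1.82 to −1.38. Its mean was 1.88 FPKM at 0 h and 0.490 FPKM at 6 h PCS, so it did not reach the level of 2 FPKM that the study asks of a biologically significant gene, which the other 6 genes did, each with a change above 2 FPKM.

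Dusp15 encodes a small myristoylated phosphatase known from differentiating oligodendrocytes, and lies on chromosome 2 from 152940995 to 152952400 (ENSMUSG00000042662). Its level was 36.0, 37.2 and 49.1 CPM at 0 h PCS and 18.5, 18.6 and 8.79 CPM at 6 h PCS. Replicates 1 and 2 at 6 h PCS were nearly equal, and replicate 3 lay below both. The change was −1.41 on the log2 scale, with a standard error of 0.280, a 95% interval of −2.04 to −0.79 and an adjusted p of 0.0143 in the edgeR fit. Without 0h replicate 3, its highest library, Dusp15 was not called (log2 fold change −1.26, adjusted p = 0.0513 from edgeR). Its annotated span shares 1355 nt with the protein-coding gene Ttll9, so read pairs from that stretch may be ambiguous. In a test against a fold change of 2 rather than against no change (glmTreat), neither Dusp12 nor Dusp15 was called (adjusted p = 0.539 and 0.565), while the 5 typical genes were.

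**Figure D2:**
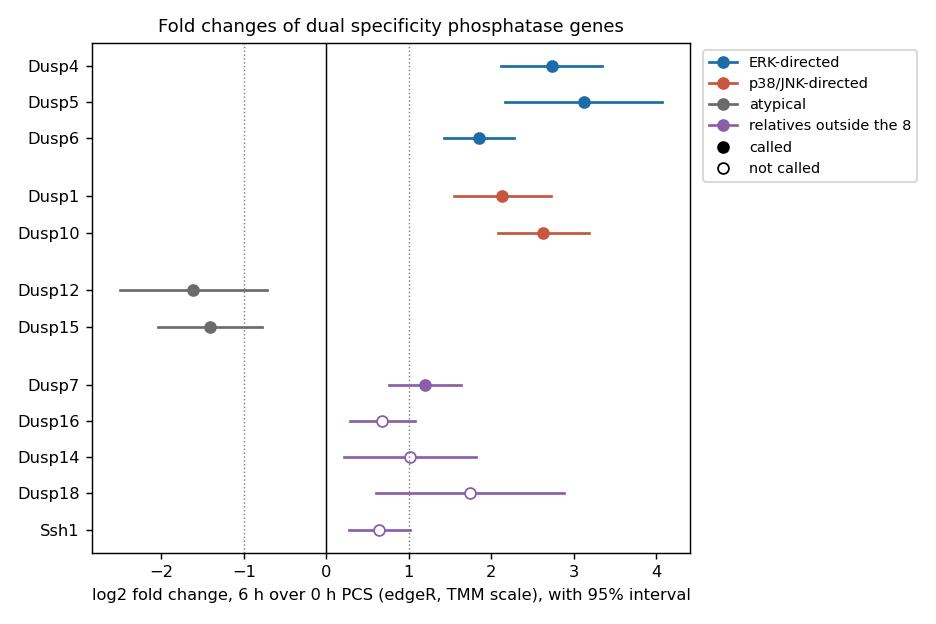
Log2 fold change of each gene from 0 h to 6 h PCS in the edgeR fit, with its 95% interval; colours give the role, filled points were called, and dotted lines mark a fold change of 2. The ERK-directed and p38/JNK-directed genes lie between 1.85 and 3.12 with overlapping intervals, and the 2 atypical genes lie at −1.61 and −1.41.

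By fold change the ERK-directed and p38/JNK-directed genes were interleaved. The log2 fold changes of the ERK-directed genes were 3.12, 2.73 and 1.85, and those of the p38/JNK-directed genes, 2.63 and 2.13, lay between them. The 95% intervals of Dusp5, Dusp4, Dusp10 and Dusp1 overlapped one another, and that of Dusp6 overlapped all 4 as well. The largest and the smallest increase both belonged to ERK-directed genes.

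Per unit of length, the order of the genes changed between the time points. At 0 h PCS, Dusp5 had 22.8 ± 12.5 FPKM and Dusp1 19.9 ± 6.62 FPKM (SD, n = 3), and Dusp1 exceeded Dusp5 in 1 of the 3 libraries, so the pair did not differ beyond its spread. Dusp15 followed with 10.4 ± 2.10 FPKM (SD, n = 3), the third of the 7, with a range that overlapped that of Dusp1. Below it came Dusp4 with 6.02 ± 0.466, Dusp6 with 5.06 ± 0.644, Dusp10 with 3.27 ± 1.07 and Dusp12 with 1.88 ± 0.618 FPKM (SD, n = 3). The ranges of Dusp4 and Dusp6 did not overlap, and those of Dusp10 and Dusp12 did. At 6 h PCS, Dusp5 stood first with 161 ± 27.9 FPKM, followed by Dusp1 with 70.0 ± 4.60 FPKM and Dusp4 with 31.7 ± 11.6 FPKM (SD, n = 3), and these 3 ranges were separate. Dusp10 with 16.3 ± 2.28 FPKM and Dusp6 with 14.5 ± 1.37 FPKM (SD, n = 3) overlapped and changed places between libraries. Dusp15 had dropped to 3.14 ± 1.25 FPKM and Dusp12 to 0.490 ± 0.0808 FPKM (SD, n = 3).

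The make-up of the family shifted towards Dusp5. Of the summed FPKM of the 7 genes, Dusp5 held 21.3% to 41.6% in the 0 h libraries and 50.7% to 60.7% in the 6 h libraries. The share of Dusp1 was 20.6% to 36.3% at 0 h and 20.7% to 26.6% at 6 h PCS, ranges that overlap. Dusp15 held 10.1% to 20.6% at 0 h and 0.563% to 1.33% at 6 h PCS. The shares of Dusp4 and Dusp10 overlapped between the time points, and that of Dusp6 went from 6.26% to 9.25% down to 4.16% to 5.56%, although its own level rose.

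The comparison of the 2 kinase preferences was made on summed FPKM within each library. The ERK-directed genes Dusp4, Dusp5 and Dusp6 summed to 47.9, 23.4 and 30.3 FPKM in 0 h replicates 1, 2 and 3 and to 178, 226 and 218 FPKM in the 6 h libraries. The p38/JNK-directed genes Dusp1 and Dusp10 summed to 30.0, 23.0 and 16.4 FPKM at 0 h and to 84.7, 83.2 and 91.0 FPKM at 6 h PCS. Both sums were thus higher in every 6 h library. The ratio of the first to the second sum was 1.60, 1.02 and 1.85 at 0 h PCS and 2.10, 2.72 and 2.40 at 6 h PCS, so every 6 h library lay above every 0 h library. On the log2 scale the mean ratio was 0.53 ± 0.447 at 0 h and 1.26 ± 0.186 at 6 h PCS (SD, n = 3), a difference of 0.73. No test was made of this ratio, because its members were chosen with results known.

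The difference in the ratio depended on single genes. Of Dusp1, Dusp4 and Dusp5, the genes left out in turn, it depended most on Dusp5. Dusp6 and Dusp10 were not left out. When Dusp5 was left out, an alternative chosen after seeing the data, the ratio was 0.375, 0.484 and 0.662 at 0 h PCS and 0.505, 0.428 and 0.665 at 6 h PCS, and the groups overlapped. The log2 difference was then 0.086, and it was 0.30 without Dusp1 and 0.48 without 0h replicate 2. The ratio of Dusp5 to Dusp1 was 1.42, 0.588 and 1.52 at 0 h PCS and 1.90, 2.93 and 2.13 at 6 h PCS. Within the ERK-directed genes, Dusp5 had 2.31 to 6.65 times the level of Dusp6 at 0 h and 9.12 to 14.6 times at 6 h PCS. The mRNA of Dusp5 was thus the more abundant of the pair in all 6 libraries, by a larger factor at 6 h PCS. Protein was not measured here.

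**Figure D3:**
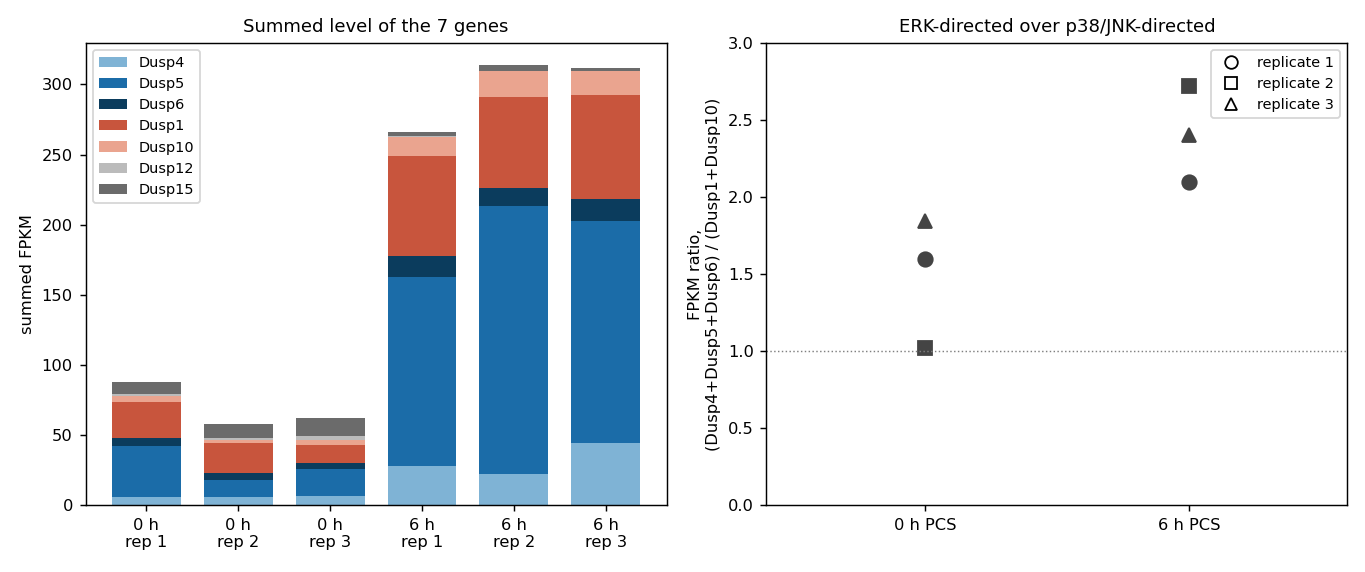
Left, FPKM of the 7 genes stacked in each library; right, the ratio of summed ERK-directed to summed p38/JNK-directed FPKM in each library, on a linear axis from 0 with a dotted line at 1. Dusp5 takes over 50% of the stack at 6 h PCS, and the ratio lies between 1.02 and 1.85 at 0 h and between 2.10 and 2.72 at 6 h PCS.

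The relatives of these genes were read from lists of the typical and atypical families. Of 10 typical MAPK phosphatases, 8 had a name at hand and 7 were tested, and 6 of the 7 rose and 0 fell. Among those 6 are Dusp1, Dusp4, Dusp5, Dusp6 and Dusp10, reported above and chosen with results known. The count is therefore not separate support. Outside the 8 genes only Dusp7 and Dusp16 were tested, and of these only Dusp7 was called. Names at hand lean towards changed genes, and 13.7% of the tested genes with a name were called, 11.6% higher and 2.1% lower, against 5.35% of all genes tested. Dusp7, a cytoplasmic ERK phosphatase close to Dusp6 and not among the 8 genes, had 20.7 ± 4.96 CPM at 0 h and 47.3 ± 5.96 CPM at 6 h PCS (SD, n = 3). It rose by 1.20 on the log2 scale, with a standard error of 0.197 and an adjusted p of 0.00585 in the edgeR fit. Dusp16, a JNK and p38 phosphatase, had 48.5, 37.1 and 31.5 CPM at 0 h and 59.8, 58.2 and 69.4 CPM at 6 h PCS, with a log2 fold change of 0.68 (adjusted p = 0.0449 from edgeR) that was under the fold limit. With Dusp7 and Dusp16 added, a choice also made after seeing the data, the ERK-directed to p38/JNK-directed ratio was 1.04 to 1.72 at 0 h and 2.06 to 2.66 at 6 h PCS. Dusp9, a further ERK phosphatase, had 1 to 3 counts in the 0 h libraries and 1 to 11 in the 6 h libraries and was not tested.

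Of the 17 atypical or slingshot phosphatases listed, 5 had a name at hand and were tested, 0 rose and 2, Dusp12 and Dusp15, fell. The other 3 had their 6 h libraries above the 0 h libraries without being called. Dusp18 had a log2 fold change of 1.74 (adjusted p = 0.0671 from edgeR) and Dusp14 of 1.02 (adjusted p = 0.119). Ssh1, a slingshot phosphatase that acts on the actin regulator cofilin, had a log2 fold change of 0.64 (adjusted p = 0.0438 from edgeR), under the fold limit. The negative direction of Dusp12 and Dusp15 was therefore not that of every atypical gene measured.

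The kinases that these phosphatases switch off were looked up in lists for each arm. Of the ERK arm, Sos1, which encodes an activator of Ras, had a log2 fold change of −0.31, Ksr1, a scaffold of the cascade, one of 0.57, and Mapk7, the gene of ERK5, one of −0.37, and none of them was called (adjusted p of Ksr1 = 0.0616 from edgeR). Of the 8 genes of the p38 arm, 6 were tested, 3 rose and 0 fell, where 4.53% of all genes tested and 11.6% of those with a name rose. Map2k3, a kinase that phosphorylates p38, had 40.4, 26.5 and 41.2 CPM at 0 h and 155, 120 and 137 CPM at 6 h PCS. Its log2 increase was 1.93, with a standard error of 0.194 and an adjusted p of 0.000431 in the edgeR fit. Mapkapk2 and Mapkapk3, kinases that p38 activates, rose by log2 fold changes of 1.14 and 1.29 (adjusted p = 0.000619 and 0.0373 from edgeR). Mapk14, the gene of p38 alpha, had a log2 fold change of 0.75 (adjusted p = 0.0306 from edgeR), under the fold limit. Map2k6, the other main activator of p38, was lower in every 6 h library without being called, with a log2 fold change of −0.72 (adjusted p = 0.120 from edgeR), and the groups overlapped in Mapk13, a further p38 gene, at 0.37.

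Of 7 genes of the JNK arm, 2 were tested and 0 were called. Mapk9, which encodes a JNK, was lower in all 6 h libraries, with a log2 fold change of −0.62 (adjusted p = 0.0590 from edgeR), and Mapk10, another JNK gene, was at 22.3 ± 3.25 and 23.8 ± 4.83 CPM (SD, n = 3). Of 8 other phosphatases that can act on MAPKs, 2 were tested, Ppm1b and Ppp2ca, and 0 were called, with log2 fold changes of 0.08 and 0.47.

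**Figure D4:**
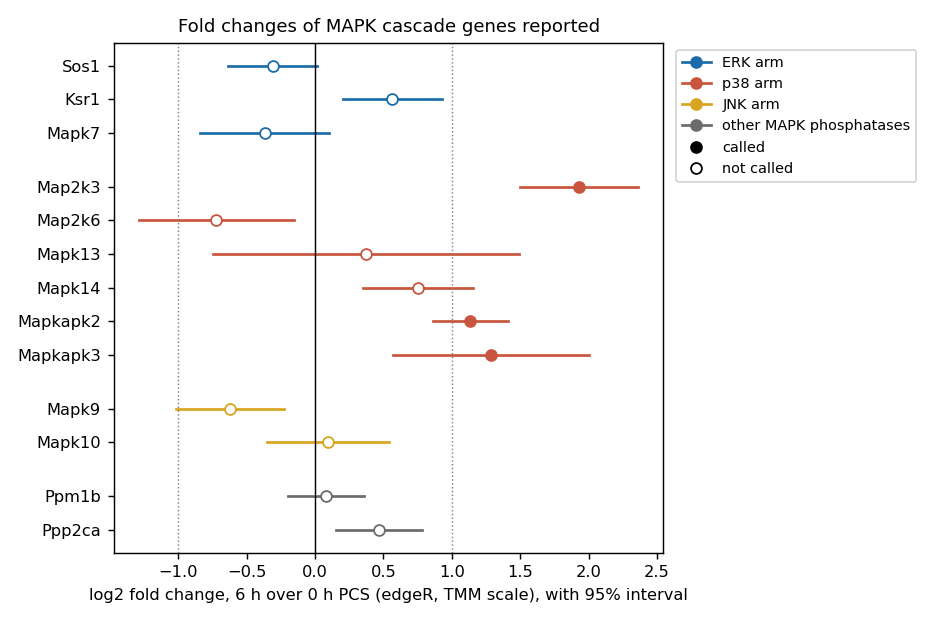
Log2 fold change from 0 h to 6 h PCS, with its 95% interval, of the genes reported here from the lists for the ERK, p38 and JNK arms and for other MAPK phosphatases; filled points were called and dotted lines mark a fold change of 2. The filled points are Map2k3, Mapkapk2 and Mapkapk3 of the p38 arm.

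For each gene, the tested genes with a name whose centred log2 CPM over the 6 libraries lay closest to its own were found by root mean square difference. Both groups of libraries share this measure, so closeness mostly means a similar fold change. Closest to Dusp6 was Cebpb (0.0905 on the log2 scale), a transcription factor gene, and closest to Dusp10 was Uck2 (0.0920), which encodes a uridine-cytidine kinase. Dusp5 had Gm38357 (0.183) and Maff (0.223) nearest, Dusp4 had Kitl (0.158) and Dusp1 had Hspa1a (0.176). Dusp12 lay nearest to the zinc finger genes Zfp128 (0.118), Zfp93 (0.126) and Zfp59 (0.135), and Dusp15 to Zfp958 (0.119).

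Scaling the libraries on their size alone moved the median log2 fold change of all tested genes to −0.32 and turned the balance of calls from 762 higher and 138 lower to 572 higher and 627 lower. All 7 genes kept their direction and call on that scale. The log2 fold changes were then 2.82 for Dusp5, 2.40 for Dusp4, 2.32 for Dusp10, 1.82 for Dusp1, 1.52 for Dusp6, −1.93 for Dusp12 and −1.72 for Dusp15.

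**Figure D5:**
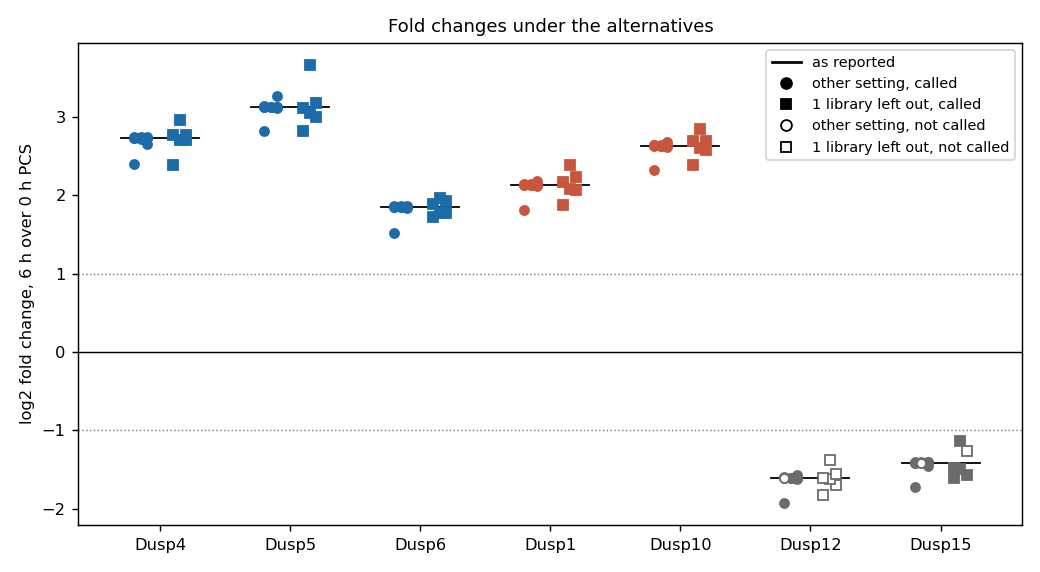
Log2 fold change of each gene from 0 h to 6 h PCS; the black line is the value reported, circles are 11 other settings and squares are the 6 fits without one library, open where the gene was not called (the open circle of glmTreat lies on the line). The 5 typical genes are filled throughout, all 6 squares of Dusp12 are open, and 1 square of Dusp15 is open.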

How the data were processed

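Paired reads of 101 nt from ribodepleted total RNA (SMARTer Stranded Pico kit) were aligned by the authors to GRCm38 with Hisat2 and assigned to Ensembl genes by the union mode of HTSeq. The deposited values are these raw counts, with 5 summary rows of HTSeq that were left out of all totals and tests. The strand setting of the counting is not given in the sources used here. Of the read pairs in each file, 33.6% to 41.2% were counted on genes and 0.670% to 0.888% were ambiguous between genes. PCR without molecular identifiers means that counts are not independent molecules.

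Counts were analysed with edgeR 4.0.16 in R 4.3.3, following the study's methods: filterByExpr, TMM, robust dispersions and the quasi-likelihood F-test in its earlier form, fitted on all 6 libraries, with Benjamini-Hochberg adjustment over the 16810 genes tested. A call needed a fold change above 2 together with an adjusted p of at most 0.05. Standard errors are the log2 fold change divided by the square root of F, and the 95% interval uses the t quantile of the fit. A permutation test of 3 against 3 libraries cannot go below a two-sided p of 0.10 and was not used. FPKM was computed on total gene counts and the exon lengths of a supplementary table. The deposited symbols paired with Ensembl IDs there cover 7023 counted and 6372 tested genes. Coordinates are from RefSeq for GRCm38.p6. No sequence was at hand. Some listed genes are not reported here.

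The 8 genes, the lists and their roles, and the alternatives were chosen with earlier results of these data known. Named genes were the 8, the called genes of the lists for phosphatase families, MAPK arms and cell type markers, list genes needed as reference, and the nearest genes by profile. Alternatives were DESeq2 1.42.0, other edgeR tests, scalings and filters, a replicate block, leaving out each library, and other memberships of the ratio. The scripts were tested on simulated data.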

Additional observations from a re-analysis of the deposited data

How the results depend on the processing

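Of the 7 phosphatase genes, 7 were called with library size scaling or RLE size factors, by DESeq2, by edgeR's exact test, by the quasi-likelihood form new in edgeR 4, without robust dispersions, with 3 other filters on low counts and with the replicate block, and 5 under glmTreat. With one library left out, 5 to 6 of them were called, and in each of these 6 fits the 5 typical genes were. The number of genes called overall was 221 under glmTreat, where the test itself asks for more than a fold change of 2, and 553 to 877 with one library left out, lowest without 0h replicate 1 (553). It was 1331 by DESeq2, 1255 by edgeR's exact test and 1301 without the low-count filter. The log2 difference in the ERK-directed to p38/JNK-directed ratio, 0.73 as reported, was 0.086 without Dusp5, 0.30 without Dusp1, 0.80 without Dusp4, 0.74 with Dusp7 and Dusp16 added, and 0.48 to 0.91 with one library left out, lowest without 0h replicate 2.

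The replicate numbers were not taken to pair the samples, because the deviations of same-numbered libraries correlated by 0.0037, 0.22 and 0.14 over 16810 genes for numbers 1, 2 and 3. Replicates 2 and 3 correlated best with their own number (crossed pairs −0.19 and −0.16), and 0h replicate 1 with 6h replicate 3 (0.023), as a hint from the data and not the design. With the replicate block, 1050 genes were called overall against 900, and the same 7 genes here. Exon lengths from a second source were not at hand for these genes, so that alternative was not run. Depth limits Dusp12 most, with 22 to 139 counts per library.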
